A study of Mus musculus with 13 samples.

Results

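The sodium pump, or Na,K-ATPase, is built from a catalytic alpha subunit, a beta subunit and often a small FXYD protein. The genes described here are Atp1b1, Atp1b2, Atp1b3 and Atp1b4, which code for the beta family, and Fxyd1 and Fxyd5, which code for FXYD proteins. They were chosen by gene symbol from a table of 14911 genes, 6 in all, and every one of the 6 was measured. They were proposed with the difference between dexamethasone and saline mice already known, so the differences in log2 CPM (the log2 of reads scaled to the size of the library) between the groups chose them. Those differences are therefore given as a description, with no p-value, and nothing is read from whether they pass a threshold.

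The pump exports sodium and imports potassium against their gradients, using ATP. Skeletal muscle needs it to restore the ion gradients after each action potential. The alpha subunit carries the ions, the beta subunit is needed to fold the alpha subunit and bring it to the cell surface, and FXYD proteins adjust the affinity and turnover of the pump. Atp1b4 is the exception. In placental mammals its protein, often called BetaM, has lost the role of a pump subunit and sits in the nuclear envelope of muscle cells, where it is most abundant around birth.

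RNA came from whole hamstring muscle of female C57BL/6 mice, 1 library per mouse. In the 9 dexamethasone mice, the muscle was injured with cardiotoxin at 0.32 mg/kg, a snake venom toxin that kills muscle fibres, and the glucocorticoid dexamethasone was given into the peritoneum every day at 10 mg/kg. The 4 saline mice had the same injury and daily saline instead. Muscle was taken at day 4 in both groups, and the labels do not give ages. Bone had formed in the injured muscle of every dexamethasone mouse, while the submitters excluded the only saline mouse with bone, so the drug and bone formation cannot be told apart in these groups.

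Libraries held 28021111 to 34942266 reads in dexamethasone mice and 25531487 to 32537345 reads in saline mice. By limma's test with Benjamini-Hochberg adjustment at 0.05, 48.1% of the 14911 genes differed between the groups, 25.2% higher and 22.9% lower in dexamethasone. The 2 groups did not overlap at all in 25.8% of genes, 12.9% with every dexamethasone library lower and 12.9% with every dexamethasone library higher. All 22 genes of a mature muscle fibre list were measured, and none was at 0 reads in any library, as in every other cell type list. The fibre list had the highest summed level of the cell type lists, at 108590 CPM or more in every library. The fibro-adipogenic list came next, at 18042 CPM or less. Nothing in the labels says that mice were handled in batches.

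Promoter sequences of 5 of the 6 genes were found in the RefSeq table of build GRCm38.p6, from 250 bases before to 50 bases after an annotated start, in 6 windows. The windows of Atp1b4, Fxyd1, Fxyd5 and Atp1b1 are shown because these genes cover the directions seen in the data: Atp1b4 and Fxyd1 were lower in dexamethasone muscle, Fxyd5 was higher and Atp1b1 overlapped between the groups. Each is written 5′ to 3′ on the gene's own strand. The windows lie at chrX:38315872-38316171 (plus strand) for Atp1b4, chr7:31054804-31055103 (minus strand) for Fxyd1, chr7:31042282-31042581 (minus strand) for Fxyd5 and chr1:164458306-164458605 (minus strand) for Atp1b1. The Fxyd1 window belongs to a start inside the gene, which spans chr7:31051678-31055873, and the DNA around the outer start of Fxyd1 was not searched. Capitals mark CANNTG, the E-box read by muscle regulatory factors, in Atp1b4 and Fxyd5, CCAAT on either strand in Atp1b4 and Atp1b1, and TATAAA on either strand in Fxyd1.
Atp1b4: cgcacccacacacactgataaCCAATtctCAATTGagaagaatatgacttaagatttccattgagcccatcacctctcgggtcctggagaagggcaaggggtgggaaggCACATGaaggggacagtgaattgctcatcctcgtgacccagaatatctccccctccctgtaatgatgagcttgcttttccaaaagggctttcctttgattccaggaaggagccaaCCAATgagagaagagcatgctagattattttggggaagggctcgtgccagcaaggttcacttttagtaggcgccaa
Fxyd1: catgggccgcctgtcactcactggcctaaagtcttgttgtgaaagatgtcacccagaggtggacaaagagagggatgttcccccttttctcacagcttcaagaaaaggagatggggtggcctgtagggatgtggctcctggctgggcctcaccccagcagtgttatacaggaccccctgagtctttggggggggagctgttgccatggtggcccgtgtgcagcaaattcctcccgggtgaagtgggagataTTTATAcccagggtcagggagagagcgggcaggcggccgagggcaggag
Fxyd5: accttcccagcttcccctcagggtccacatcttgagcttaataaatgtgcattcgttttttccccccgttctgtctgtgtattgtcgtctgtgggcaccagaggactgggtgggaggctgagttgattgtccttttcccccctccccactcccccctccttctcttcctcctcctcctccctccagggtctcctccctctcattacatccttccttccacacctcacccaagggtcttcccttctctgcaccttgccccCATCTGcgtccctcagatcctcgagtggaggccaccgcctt
Atp1b1: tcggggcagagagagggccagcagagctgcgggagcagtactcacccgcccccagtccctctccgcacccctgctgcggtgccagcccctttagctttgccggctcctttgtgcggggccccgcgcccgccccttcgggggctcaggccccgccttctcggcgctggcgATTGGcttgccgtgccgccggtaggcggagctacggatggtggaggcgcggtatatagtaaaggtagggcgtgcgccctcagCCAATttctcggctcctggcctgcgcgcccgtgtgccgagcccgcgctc

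The windows differed in base composition. G and C made up 49% of the Atp1b4 window, 58.7% of the Fxyd1 window, 57.3% of the Fxyd5 window and 71% of the Atp1b1 window, against a median of 52.7% over 32851 mouse promoters of the same length. The 2 windows of Atp1b3, for separate starts, were the richest at 74.7% and 76%.

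The Atp1b4 window held 2 E-boxes, CAATTG starting at position -221 and CACATG starting at -141, with the annotated start as position 1, and CCAAT at -229 and -26. The Fxyd5 window held 1 E-box, CATCTG at position 10, and each Atp1b3 window held 1. The Fxyd1 window had TTTATA at position 2, which reads TATAAA on the other strand, and the Atp1b1 window had CCAAT at position 2 and, on the other strand, at -81. Searched on both strands, an E-box was present in 72.3% of all promoters in the table, CCAAT in 37.4% and TATAAA in 13.6%. An E-box and a CCAAT do not overlap in any of these windows. The MEF2 site of muscle genes (0.557% of promoters), the CArG box of actin genes (1.63%), the glucocorticoid receptor half-site AGAACA (19.0%) and its full palindrome, AGAACA followed by 3 free bases and TGTTCT (0.00913%), matched nowhere in the 6 windows. A match is a description of the letters, and these windows cover a small part of the DNA that can regulate a gene.

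Atp1b4 had the widest gap between the groups of the 6 genes. Its level was low in all 9 dexamethasone muscles, at 3.15 log2 CPM in the lowest, 3.53 at the median and 4.04 in the highest. The saline muscles had 6.29, 6.48, 6.46 and 6.18 log2 CPM in libraries 1, 2, 3 and 5. The groups were far apart: the highest dexamethasone library was below the lowest saline library by several times the SD of either group. In reads, Atp1b4 had 285 to 482 per dexamethasone library and 2007 to 2515 per saline library. The means were 3.57 ± 0.25 log2 CPM in dexamethasone (SD, n = 9) and 6.35 ± 0.15 log2 CPM in saline (SD, n = 4), a log2 fold change of -2.79 with a standard error of 0.12, or 6.89-fold lower.

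Among the 12519 genes with a mean of at least 1 log2 CPM, the fall of Atp1b4 ranked 1, and among all 14911 genes it ranked 12. A fall past the threshold of at least 2-fold was seen in 2.69% of all genes, and a rise of that size in 2.5%. The dexamethasone libraries themselves varied: library 6 was highest, and libraries 2 and 4 were lowest. Atp1b4 lies on the X chromosome at chrX:38316122-38336784 on the plus strand, and no other annotated gene overlaps it.

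The beta subunits that do serve the pump behaved unlike Atp1b4. Atp1b1, the classical partner of the alpha subunits, had 6.52, 6.69 and 6.88 log2 CPM at the lowest, median and highest dexamethasone library. Its saline values were 6.76, 6.80, 6.74 and 6.26 log2 CPM in libraries 1, 2, 3 and 5. Library 5 stood below the other saline muscles, and the remaining saline values lay inside the dexamethasone range. The means were 6.70 ± 0.11 log2 CPM in dexamethasone (SD, n = 9) and 6.64 ± 0.26 log2 CPM in saline (SD, n = 4), and the log2 fold change was 0.06 with a standard error of 0.09. Without saline library 5 it was -0.07.

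Atp1b2, an abundant beta subunit of fast muscle fibres that is also known as an adhesion molecule of glia, had 8.20, 8.58 and 8.82 log2 CPM at the lowest, median and highest dexamethasone library. Its saline values were 9.08, 8.86, 8.72 and 8.43 log2 CPM. The groups overlapped, with 3 of 9 dexamethasone libraries below every saline library. The log2 fold change was -0.25 with a standard error of 0.11. It was -0.15 without saline library 1 and -0.36 without saline library 5.

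Atp1b3, a beta subunit found in many cell types, differed least. It had 6.59, 6.64 and 6.74 log2 CPM at the lowest, median and highest dexamethasone library, and 6.43, 6.65, 6.66 and 6.86 log2 CPM in the saline libraries. The whole dexamethasone range fell inside the saline range, which was the wider of the 2. The log2 fold change was -0.01 with a standard error of 0.06, and 1.58% of all genes had a change of that size or smaller.

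**Figure D1:**
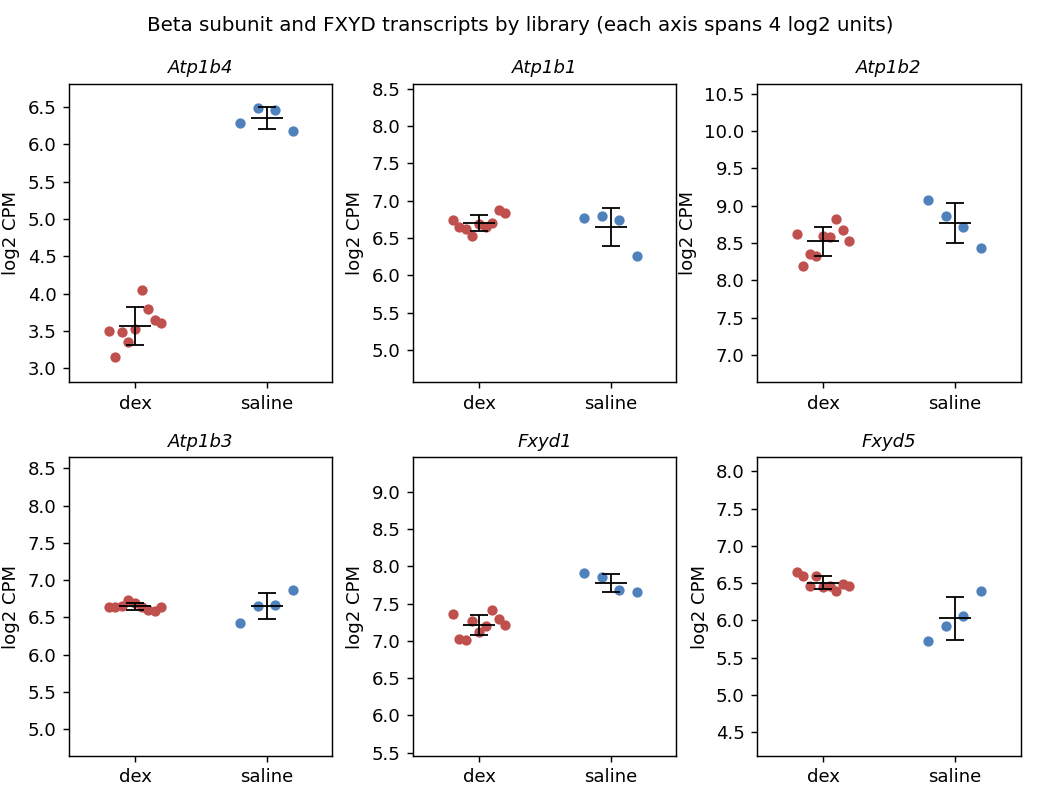
Level of each of the 6 genes by library, in log2 CPM, with dexamethasone libraries (dex, n = 9) to the left of saline libraries (n = 4). Each panel spans the same number of log2 units, points are mice, and bars are the mean and SD. Atp1b4 is separated between the groups by the widest gap, Fxyd1 is lower in all 9 dexamethasone libraries, Fxyd5 is higher in 8 of 9, and the other panels overlap.

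The FXYD genes differed in opposite directions. Fxyd1 codes for phospholemman, the main FXYD protein of heart and skeletal muscle, which restrains the pump until it is phosphorylated. It had 7.01, 7.22 and 7.42 log2 CPM at the lowest, median and highest dexamethasone library. The saline libraries had 7.91, 7.85, 7.69 and 7.65 log2 CPM. All 9 dexamethasone libraries were below all saline libraries, though the gap was narrow beside that of Atp1b4. The means were 7.21 ± 0.14 log2 CPM in dexamethasone (SD, n = 9) and 7.77 ± 0.12 log2 CPM in saline (SD, n = 4). The log2 fold change was -0.56 with a standard error of 0.08, or 1.47-fold lower.

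Fxyd5 codes for dysadherin, an FXYD protein best known from epithelia, where it also affects cell adhesion. It had 6.40, 6.47 and 6.65 log2 CPM at the lowest, median and highest dexamethasone library, against 5.72, 5.93, 6.06 and 6.40 log2 CPM in saline libraries 1, 2, 3 and 5. In 8 of 9 dexamethasone libraries it was above every saline library. The exception, dexamethasone library 7, was level with saline library 5. The means were 6.51 ± 0.08 log2 CPM in dexamethasone (SD, n = 9) and 6.03 ± 0.28 log2 CPM in saline (SD, n = 4), a log2 fold change of 0.48 with a standard error of 0.09, or 1.39-fold higher. Without saline library 5 the log2 fold change was 0.60.

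Of the 6 genes, 3 were past the threshold, 2 of them lower (Atp1b4 and Fxyd1) and 1 higher (Fxyd5), beside the 48.1% of all genes given above. The groups did not overlap in 2 of the 6, beside 25.8% of all genes. Nothing is read from these counts, because the same difference chose the genes. The median log2 fold change of the 6 was -0.13, and that of all genes was 0.01.

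Fxyd1 and Fxyd5 are close neighbours on chromosome 7, both on the minus strand. Fxyd5 spans chr7:31032723-31042331 and Fxyd1 spans chr7:31051678-31055873, so 9346 bases lie between them. That gap holds Fxyd7, an FXYD gene best known from brain, which ends 223 bases before Fxyd1 and begins 183 bases after Fxyd5. Fxyd7 had a mean of 0.19 ± 0.46 log2 CPM in dexamethasone (SD, n = 9) and 0.24 ± 0.45 log2 CPM in saline (SD, n = 4), with 19 to 57 and 21 to 45 reads per library. It did not pass the test in limma (log2 fold change -0.05, standard error 0.26, adjusted p of 0.899). The neighbours thus had different values: lower for Fxyd1, higher for Fxyd5, and for the gene between them no difference detectable at this depth.

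A long non-coding gene, Gm38984, is annotated across Fxyd7 and Fxyd1 and over part of Fxyd5, and Mir7050 lies within Fxyd5. Atp1b1 at chr1:164437099-164458355 overlaps Nme7 on the opposite strand. The library kit keeps strand, but the strand setting of the counting is not given in the sources used here, so a share of reads from these partners cannot be told apart. Atp1b2 at chr11:69599728-69605978 and Atp1b3 at chr9:96332655-96364431, both on the minus strand, overlap no annotated gene.

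Levels of different genes were compared per kilobase of exon, using merged exons of GENCODE M21. On that scale the order of the beta genes in dexamethasone muscle was Atp1b2, Atp1b3, Atp1b1 and Atp1b4, at 90.7 ± 12.0, 41.9 ± 1.35, 33.8 ± 2.62 and 2.86 ± 0.52 CPM per kilobase (SD, n = 9). The order was the same in saline muscle, at 108 ± 19.8, 42.3 ± 5.13, 32.8 ± 5.30 and 19.5 ± 1.94 CPM per kilobase (SD, n = 4). In saline muscle the ranges of the neighbours Atp1b3 and Atp1b1 just touched, with 36.1 as the lowest Atp1b3 value and 36.2 as the highest Atp1b1 value. In dexamethasone muscle they were apart, since Atp1b3 was at least 40.3 and Atp1b1 at most 38.2 CPM per kilobase. This separation rests on the exon lengths used, 2389 bases for Atp1b3 and 3081 bases for Atp1b1, and the annotation used for counting is not known. In log2 CPM their dexamethasone ranges overlapped, at 6.59 to 6.74 for Atp1b3 and 6.52 to 6.88 for Atp1b1.

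As a share of all beta transcripts per kilobase, Atp1b4 made up 1.68 ± 0.24% in dexamethasone muscle (SD, n = 9) and 9.65 ± 0.89% in saline muscle (SD, n = 4). Atp1b1 made up 20.0 ± 1.35% in dexamethasone and 16.1 ± 1.40% in saline. Atp1b2 held the largest share in both, at 53.4 ± 3.05% in dexamethasone and 53.1 ± 4.75% in saline, and Atp1b3 held 24.9 ± 2.49% in dexamethasone and 21.2 ± 4.80% in saline. Shares sum to a fixed total, so a lower share of 1 gene raises those of the others. The total of the beta genes was 169 ± 13.1 CPM per kilobase in dexamethasone and 203 ± 20.3 CPM per kilobase in saline.

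The FXYD genes kept a wide distance from each other on the per-kilobase scale. Fxyd1 was at 68.1 ± 6.51 CPM per kilobase in dexamethasone (SD, n = 9) and 100.3 ± 8.70 CPM per kilobase in saline (SD, n = 4). Fxyd5 was at 21.7 ± 1.29 CPM per kilobase in dexamethasone and 15.8 ± 3.20 CPM per kilobase in saline. Per kilobase, Fxyd1 exceeded Fxyd5 in every library.

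**Figure D2:**
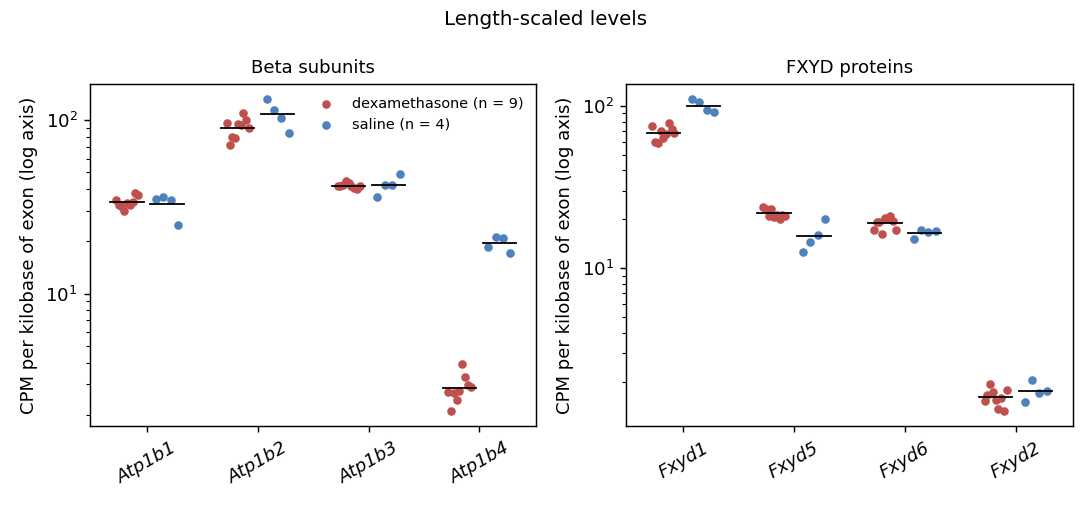
Levels in CPM per kilobase of exon on a log axis, for the beta genes (left) and for FXYD genes (right), with dexamethasone libraries (n = 9) to the left of saline libraries (n = 4) for each gene. Points are mice and lines are means. Atp1b2 is the highest beta gene in both groups and Atp1b4 the lowest, at a mean of 2.86 in dexamethasone and 19.5 in saline.

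Ratios taken within each library do not depend on how that library was scaled. The log2 ratio of Atp1b4 to Atp1b1 reads was -3.13 ± 0.25 in dexamethasone (SD, n = 9) and -0.29 ± 0.16 in saline (SD, n = 4), without overlap. The log2 ratio of Atp1b4 to Atp1b2 was -4.96 ± 0.17 in dexamethasone and -2.42 ± 0.25 in saline, and that of Atp1b4 to Atp1b3 was -3.08 ± 0.28 in dexamethasone and -0.30 ± 0.26 in saline, again without overlap. The log2 ratio of Fxyd1 to Atp1b2 was -1.31 ± 0.13 in dexamethasone and -0.999 ± 0.16 in saline, and these ratios overlapped between the groups. Fxyd5 to Fxyd1 had a log2 ratio of -0.71 ± 0.16 in dexamethasone and -1.75 ± 0.40 in saline, without overlap.

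Genes of mature muscle fibres were lower in dexamethasone muscle together with Fxyd1 and Atp1b4. Of 22 mature fibre genes, 11 fell and 0 rose by the adjusted test, and the median log2 fold change was -0.40. After quantile normalisation 3 of them rose and the median was -0.20. Casq1, the calcium store protein of fast fibres, fell by 0.96 on the log2 scale (adjusted p of 2.5e-05), Eno3, the muscle enolase, by 0.92 (adjusted p of 3.4e-05) and Tnnt1, the slow troponin T, by 0.69 (adjusted p of 5.2e-05). The summed level of the list was 108590 to 161110 CPM in dexamethasone libraries and 162820 to 239900 CPM in saline libraries, without overlap, and no gene of the list was at 0. In whole muscle, fewer cells of a type and less RNA per cell cannot be told apart.

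Developing fibre genes moved both ways. Of 16, 5 rose and 7 fell, beside 25.2% of all genes higher and 22.9% lower. Their median log2 fold change was -0.08, and without saline library 2 the rises were 3. The risers were Mymx by 0.55, Ncam1 by 0.52, Cdh15 by 0.48, Chrnd by 0.38 and Chrna1 by 0.36, named after their values were seen. The fallers included Actc1, the cardiac actin of regenerating fibres, by 2.46 (adjusted p of 1.7e-07), Myh8, the perinatal myosin, by 1.00 (adjusted p of 1.2e-05) and Myom3, an M-band protein, by 0.72 (adjusted p of 1.3e-07), all on the log2 scale. The summed level of the 16 genes was 4487 to 6599 CPM in dexamethasone libraries and 10733 to 11991 CPM in saline libraries. No gene of the list was at 0. Actc1 took 436 to 1119 CPM of that sum in dexamethasone libraries and 4112 to 5115 CPM in saline libraries, and the other genes summed to 4051 to 5662 CPM in dexamethasone and 5692 to 7355 CPM in saline. The mean of the list on the log2 scale overlapped between the groups, at 7.85 ± 0.11 in dexamethasone (SD, n = 9) and 8.05 ± 0.22 in saline (SD, n = 4).

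The 6 genes were also set against these fibre lists, by subtracting each library's mean over a list before taking the difference. Relative to the mature fibre mean, the log2 difference of Fxyd1 was -0.10, that of Atp1b2 was 0.21 and that of Atp1b4 was -2.33. On the same scale Atp1b3, Atp1b1 and Fxyd5 stood at 0.45, 0.51 and 0.94. Relative to the developing fibre mean, Atp1b4 was at -2.58, Fxyd1 at -0.36, Atp1b2 at -0.05, Atp1b3 at 0.20, Atp1b1 at 0.26 and Fxyd5 at 0.68. The lists themselves differed by -0.46 (mature) and -0.20 (developing), and subtracting a list moves every gene by the same amount. How much of a difference remains for a gene thus follows from its size before the subtraction. Which share of a difference goes with fibre content was not tested.

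**Figure D3:**
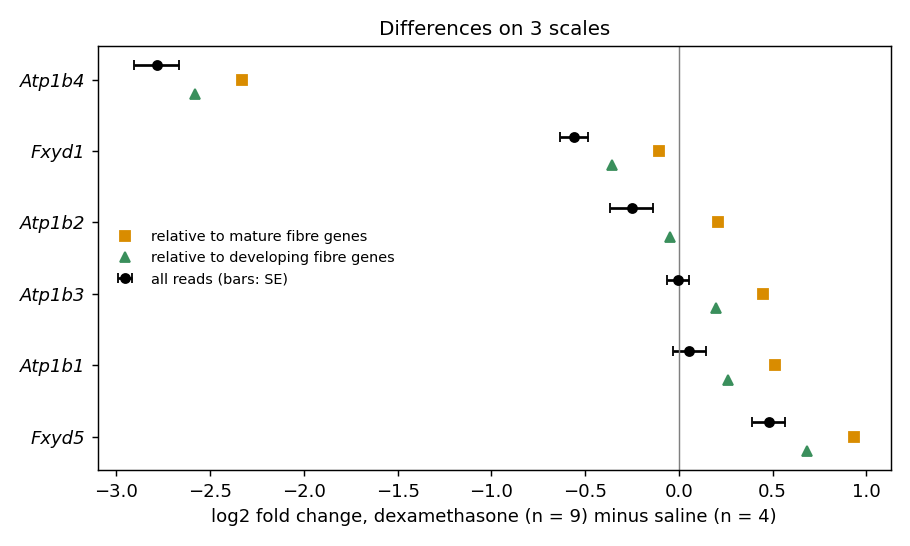
Log2 difference of each gene, dexamethasone (n = 9) minus saline (n = 4), on 3 scales: over all reads (circles, bars are SE), relative to the mean of the mature fibre genes (squares) and relative to the mean of the developing fibre genes (triangles). Atp1b4 stays between -2.79 and -2.33 on all of them, and Fxyd1 lies between -0.56 and -0.10.

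Variation among the 9 dexamethasone mice was not used to choose the genes, and relations were computed within it, the saline mice being too few. In all, 33 relations were computed: 15 between pairs of the 6 genes and the rest between each gene and the mean of the mature fibre, developing fibre and macrophage lists. Fxyd1 followed the mature fibre mean, with Pearson's r of 0.92 (exact permutation p of 0.000474, adjusted p of 0.0156) and Spearman's rho of 0.92 (exact permutation p of 0.00131, adjusted p of 0.0433). Without the 2 libraries farthest from the median of the fibre mean, libraries 2 and 3, r was 0.87 over 7 libraries, with an exact permutation p of 0.0113 and an adjusted p of 0.187. The adjusted call was thus lost while r changed little and fewer libraries entered. The library with the lowest fibre mean, 11.35 log2 CPM, had the second lowest Fxyd1.

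No other relation passed adjustment, and 8 of 33 had an unadjusted exact p under 0.05 for r. Atp1b2 with the mature fibre mean had r of 0.84 (exact permutation p of 0.00539, adjusted p of 0.0592) and rho of 0.80 (adjusted p of 0.152), and r fell to 0.61 without libraries 2 and 3. Atp1b4 with the mature fibre mean had r of 0.60 (exact permutation p of 0.0843, adjusted p of 0.258) and rho of 0.58, and r was 0.24 without those libraries. Atp1b4 with the macrophage mean had r of -0.67 (exact permutation p of 0.0481, adjusted p of 0.198), rho of -0.75 (adjusted p of 0.203), and r of -0.72 without libraries 4 and 8. Atp1b3 with the macrophage mean had r of 0.84 (exact permutation p of 0.00409, adjusted p of 0.0592) and rho of 0.82, and r was 0.53 without libraries 4 and 8. Fxyd5 with the macrophage mean had r of 0.72 (exact permutation p of 0.0300, adjusted p of 0.165), rho of 0.43, and r of 0.79 without libraries 4 and 8. None of the 15 pairs among the 6 genes passed adjustment. Both values of a relation come from the same library and share its scaling.

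**Figure D4:**
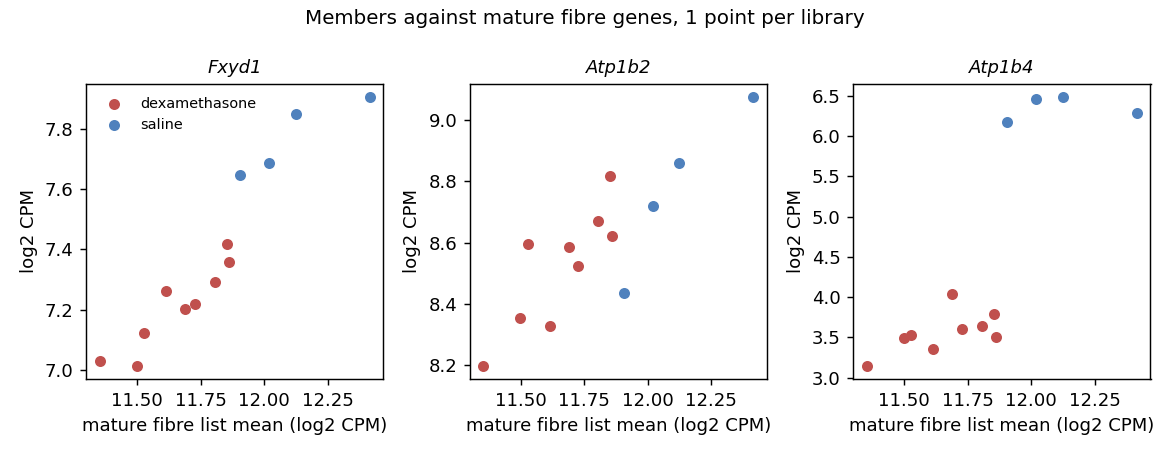
Level of Fxyd1, Atp1b2 and Atp1b4 (log2 CPM) against the mean of 22 mature fibre genes (log2 CPM), 1 point per library, for dexamethasone (n = 9) and saline (n = 4). Fxyd1 rises with the fibre mean within dexamethasone (r of 0.92), and Atp1b4, with r of 0.60, is low in all dexamethasone libraries. Fibre means run from 11.35 to 11.86 in dexamethasone and from 11.91 to 12.42 in saline, so the groups do not overlap on that axis.

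The saline libraries differed among themselves in the same measures. Saline library 5 had the lowest mature fibre mean, 11.91 log2 CPM, and the highest macrophage mean, 6.99 log2 CPM, of the 4. It also had the lowest Atp1b1, Atp1b2, Atp1b4 and Fxyd1 and the highest Atp1b3 and Fxyd5 of the saline group. Saline library 1 was at the other end, with a mature fibre mean of 12.42 and a macrophage mean of 6.43 log2 CPM, the highest Atp1b2 and Fxyd1 and the lowest Atp1b3 and Fxyd5. With 4 mice no correlation was computed, and the part of cell content in these values was not tested.

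Among the FXYD genes that are not members of the 6, Fxyd6, known from brain and ear, rose by 0.19 with a standard error of 0.07 (limma, adjusted p of 0.0329), with 6 of 9 dexamethasone libraries above every saline library. This call ended after median centring (adjusted p of 0.0574), after quantile normalisation (adjusted p of 0.0976), without an intensity trend (adjusted p of 0.0506), and without any of dexamethasone libraries 5, 6, 7 and 8 or saline libraries 1 and 3 (adjusted p of 0.0507 to 0.118). Fxyd2, the FXYD protein of kidney, was at -0.13 (adjusted p of 0.333), and Fxyd3 was at 0.08 with 9 to 24 reads in dexamethasone libraries and 8 to 24 in saline libraries (adjusted p of 0.857). Atp1a4, a pump gene known from testis, was at -0.63 with 8 to 22 reads in dexamethasone libraries and 14 to 32 in saline libraries (adjusted p of 0.120), and without saline library 5 it passed, at -0.91 (adjusted p of 0.0343).

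The Nkain genes, named after their values were seen, code for membrane proteins that bind beta subunits. Nkain1 fell, with 4.71 ± 0.16 log2 CPM in dexamethasone (SD, n = 9) and 5.34 ± 0.14 log2 CPM in saline (SD, n = 4), a log2 fold change of -0.63 with a standard error of 0.09 (limma, adjusted p of 2.66e-05), and lower in 9 of 9 dexamethasone libraries. Nkain2 was at -1.02 with a standard error of 0.53 (adjusted p of 0.126), on 1 to 22 reads in dexamethasone libraries and 15 to 30 in saline libraries. It passed on the scale of log2 of CPM plus 1, at -0.31 (adjusted p of 0.0403), and was at -0.66 without dexamethasone library 4 (adjusted p of 0.0534). Of the 10 measured genes in the list of other pump subunits and relatives, 2 rose, 1 fell and 7 did not pass, with a median log2 fold change of -0.06. Fxyd4, Nkain3, Nkain4, Atp4a, Atp4b and Atp12a were not analysed here.

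**Figure D5:**
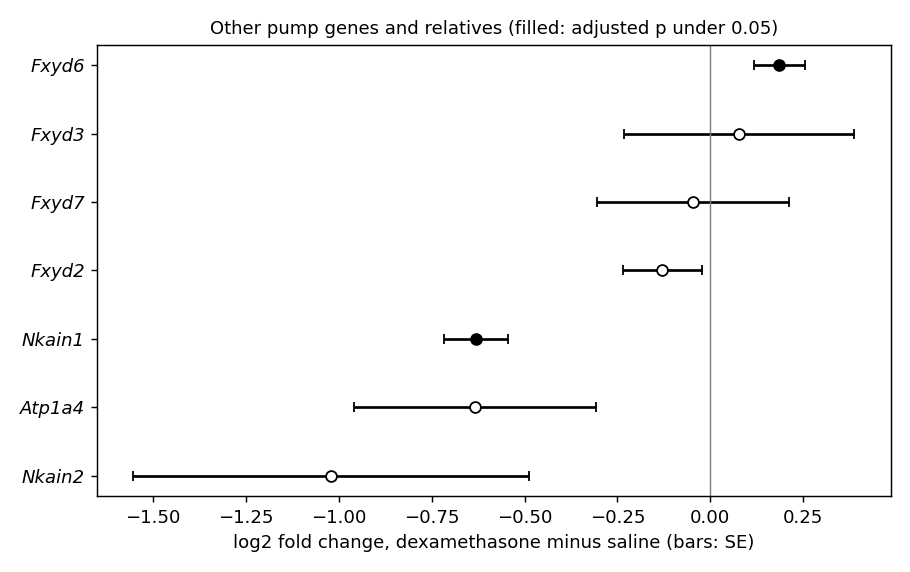
Log2 fold change, dexamethasone (n = 9) minus saline (n = 4), of 7 of the 10 measured pump genes and relatives outside the 6, with SE bars. Filled points have an adjusted p under 0.05: Fxyd6 is higher, a call that ended after median centring, and Nkain1 is lower, and the widest bars belong to Nkain2, Atp1a4 and Fxyd3, which had few reads.

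Genes that regulate or bind the pump moved in both directions. Of 21, 6 rose and 4 fell (2 without saline library 2), with a median log2 fold change of 0.04. These counts are near the shares over all genes, 25.2% higher and 22.9% lower, so nothing about pump regulators as a group is read from them. Sgk3, a kinase of the serum- and glucocorticoid-regulated family, rose by 0.48 (limma, adjusted p of 3.72e-05), and Stk39, a kinase of cation-chloride cotransporters, by 0.51 (adjusted p of 3.83e-05). Sgk1, of the same family as Sgk3, was at 0.05 (limma, adjusted p of 0.811) and is named after its value was seen. Agrn, agrin of the neuromuscular junction, fell by 0.47 (adjusted p of 7.92e-05). Snw1, a transcriptional coregulator that binds the nuclear BetaM protein, was at -0.11 (adjusted p of 0.0491) and was singled out after its value was seen. The Snw1 call ended without a trend (adjusted p of 0.0583), with robust priors (0.0513), library weights (0.0996) or voom (0.0509), and when any 1 library other than dexamethasone library 4 was left out (0.0507 to 0.122).

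Of 23 measured genes for sodium, potassium and chloride transport, 7 rose and 1 fell (3 without saline library 5), with a median log2 fold change of 0.08. Over all genes 25.2% were higher and 22.9% lower. Slc8a1, the sodium-calcium exchanger that runs on the gradient the pump makes, rose by 0.82 on the log2 scale (limma, adjusted p of 9.59e-08), and Slc12a7, a potassium-chloride cotransporter, rose by 0.64 (adjusted p of 7.27e-06).

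Nuclear envelope genes were listed because the Atp1b4 protein lies there. Of 25, 9 rose and 2 fell, and the median log2 fold change was 0.09. There were 0 falls without saline library 1 and 1 without saline library 2. Lmna, which codes for lamins A and C, rose by 0.47 (limma, adjusted p of 0.000293), Syne2, a nesprin that ties the nucleus to the cytoskeleton, by 0.26 (adjusted p of 0.000311) and Syne3, another nesprin, by 0.79 (adjusted p of 2.78e-05). The fallers were Tmem38a, a potassium channel of the sarcoplasmic reticulum and nuclear envelope, at -0.31 (adjusted p of 0.0197), and Plpp7, an envelope protein of muscle, at -0.32 (adjusted p of 0.0249), both named after their values were seen. None of the 25 fell as far as Atp1b4. Among the 12519 genes with a mean of at least 1 log2 CPM, 0 fell further than Atp1b4, so nothing about the nuclear envelope is read from that. Each of these list counts stands beside 25.2% of all genes higher and 22.9% lower.

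Lists of other cell types differed between the groups to unequal degrees. The counts here and in the next paragraph stand beside 25.2% of all genes higher and 22.9% lower. All 12 lymphocyte markers fell, with a median log2 fold change of -2.17, a summed level of 5.71 to 16.2 CPM in dexamethasone libraries and 43.0 to 59.9 CPM in saline libraries. Of 14 macrophage markers 5 rose and 1 fell, with a median of 0.04 and a summed level of 2983 to 3775 CPM in dexamethasone and 2497 to 3671 CPM in saline. Msr1, a scavenger receptor, rose by 1.67 (limma, adjusted p of 1.98e-07), Mrc1, the mannose receptor, by 1.32 (adjusted p of 3.76e-07) and Itgam by 0.78 (adjusted p of 7.09e-05). The faller was Csf1r, at -0.18 (adjusted p of 0.0482), and falls ranged from 0 to 2 with a library left out. The 8 macrophage markers that did not pass included Adgre1 at 0.18, Lyz2 at 0.07 and C1qa at 0.005. Csf1r and these markers are named after their values were seen. Of 6 adipocyte markers 5 rose (2 without saline library 3 or without saline library 5), with a median of 0.70 and a summed level of 950.1 to 1813 CPM in dexamethasone and 778 to 1143 CPM in saline. The satellite cell list had 3 rises and 2 falls among 8 genes.

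The neutrophil, endothelial and fibro-adipogenic lists of 9 genes each had 1 rise with 1, 1 and 2 falls, the pericyte and smooth muscle list had 2 rises and 0 falls among 7, and the Schwann cell list 1 rise and 2 falls among 8. Counts this small moved when single libraries were left out. Summed neutrophil markers were at 34.9 to 70.2 CPM in dexamethasone libraries and 30.8 to 399.6 CPM in saline libraries, with the highest in saline library 3. None of the 5 red blood cell genes measured passed, and no marker of any list was at 0 reads in any library. The part that these cell types play in the values of the 6 genes was not tested.

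The genes whose pattern over the 13 libraries was most like that of each of the 6 were found by the root mean square difference of centred log2 CPM, over 12245 genes with a mean of at least 1 log2 CPM, leaving out the 6 themselves, predicted genes, Riken clones and pseudogenes. Both groups enter this measure, so the group difference weighs heavily in it, and the neighbours are a description. The nearest gene to Atp1b4 was Actc1, at 0.31 on the log2 scale, with 9.74 ± 0.41 log2 CPM in dexamethasone (SD, n = 9) and 12.20 ± 0.14 log2 CPM in saline (SD, n = 4). Next came Retnla, a product of alternatively activated mouse macrophages, at 0.43, Col24a1, a fibrillar collagen of bone and cornea, at 0.46, Cd79b, a chain of the B cell receptor, at 0.46, and Tceal7 at 0.49. Actc1 is on the developing fibre list and Cd79b on the lymphocyte list. These distances were larger than those of the nearest genes to the other 5. The measure grows with a gene's own spread, so closeness is not compared between the 6 genes.

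The nearest genes to Fxyd1 were Atp5g1, a subunit of the mitochondrial ATP synthase, at 0.04, and Ldha, a lactate dehydrogenase of glycolytic muscle, at 0.04. Atp5g1 averaged 7.19 ± 0.15 log2 CPM in dexamethasone (SD, n = 9) and 7.68 ± 0.12 log2 CPM in saline (SD, n = 4), and within dexamethasone it had r of 0.98 with Fxyd1, given as a description. Fxyd5 was nearest to S100a11, a calcium-binding protein, and Elovl1, an enzyme of very long fatty acids, both at 0.06. Atp1b1 was nearest to the transcription factor genes Nfic and Tead1, both at 0.08, and Atp1b2 to Kctd15 and Camk2a, both at 0.06. Atp1b3 was nearest to Glmp, at 0.04, and Ppp1r12c, at 0.05. When nearness was taken as r within dexamethasone instead, 0 of the 5 neighbours of Atp1b4 were the same and 1 of the 2 neighbours of Fxyd1, Atp5g1, was.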

How the data were processed

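Polyadenylated RNA of 13 mouse muscles was sequenced from stranded libraries, per the labels' protocols. Per the submitters' processing notes, featureCounts 2.0.1 counted reads on mm10 and limma 3.50.1 followed. Aligner and annotation were not given in the sources used here. Log2 CPM values are what the authors deposited; each equals the log2 of (reads + 0.5) divided by a scaled library size, so whole reads came back for 100% of values within 0.01. Low genes depend on that offset. The table scaled without the excluded mouse was used, and 1 column of that mouse in the second table was left out.

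Groups came from the labels. The members and lists were chosen with earlier results of these data known. Genes were compared with limma 3.58.1 in R 4.3.3 (intensity trend, two-sided, Benjamini-Hochberg at 0.05), and relations by exact permutation over all pairings (scipy 1.17.1). Named genes were the 6, the measured alpha and FXYD genes, up to 3 genes per list of smallest adjusted p with mean log2 CPM of at least 0 (not all printed for other cell types), and the 2 nearest genes in pattern, or 5 for Atp1b4. Some genes that this rule picked are not reported here, though they enter the list counts.

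Exon lengths came from GENCODE M21 and coordinates from RefSeq, both on GRCm38, the assembly of mm10. Tested on simulated data for dexamethasone against saline over 14911 genes, the fit found 88 of 100 genes given a log2 change of 1 and 67 of 100 given 0.5, with 6 false in 161 calls. Only those genes were changed in the simulation, while 48.1% of genes were called in the data, so these rates do not carry over to the real comparison. Chi-square per gene between libraries of a group was 7.21 or more in all 42 pairs, so none was a repeat of another. Group differences and list counts were recomputed with the second deposited table, another offset (log2 of CPM plus 1), low genes removed, median centring, quantile normalisation, other moderation (no trend, robust priors, weights per library), voom on the whole reads, the mouse number as a block, and single libraries left out. Values relative to the fibre lists and differences of medians were computed for the 6 genes, and relations were recomputed with the second table, the other offset and 2 libraries left out. Figures used matplotlib 3.10.9.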

Additional observations from a re-analysis of the deposited data

Results flagged for a closer look

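A single library stood apart from the rest of its group in 5 of 128 groups of values examined, and chance gives about 1 in 20. Atp1b1 in saline library 5 was at 6.26 log2 CPM, with the nearest other saline library at 6.75. The other 4 concern dexamethasone library 4, the lowest of its group each time. Actc1 was at 8.77 log2 CPM there, with the nearest library at 9.51, and Col24a1 at 1.59, with the nearest at 2.24. Nkain2 was at -4.22 log2 CPM, which is 1 read, with the nearest library at -1.65. The mean of the other pump subunits and relatives was 3.07 log2 CPM in that library, with the nearest at 3.31, and Nkain2 is 1 of its 10 genes. Atp1b4 in dexamethasone library 4, at 3.35 log2 CPM, was inside the range of its group.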

How the results depend on the processing

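The log2 fold changes of Atp1b4, Fxyd1 and Fxyd5 kept their direction under every alternative tried. Over the libraries left out in turn they ranged from -2.84 to -2.73 for Atp1b4, from -0.60 to -0.52 for Fxyd1, from 0.38 to 0.60 for Fxyd5, from -0.07 to 0.11 for Atp1b1, from -0.36 to -0.15 for Atp1b2 and from -0.08 to 0.06 for Atp1b3. Relative to the mature fibre mean they were -2.33 for Atp1b4, -0.10 for Fxyd1, 0.94 for Fxyd5, 0.51 for Atp1b1, 0.21 for Atp1b2 and 0.45 for Atp1b3. Relative to the developing fibre mean they were -0.36 for Fxyd1, 0.68 for Fxyd5, 0.26 for Atp1b1 and 0.20 for Atp1b3. These scales subtract a list that itself differs between the groups. Genes called over all genes numbered 3357 to 3767 higher and 2949 to 3409 lower with a library left out.

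Small list counts moved. Of the other pump subunits and relatives, 2 fell with log2 of CPM plus 1, and 1 rose with median centring and without a trend. With a library left out, 1 to 2 rose (1 without dexamethasone libraries 5, 6, 7 or 8 or saline libraries 1 or 3) and 1 to 2 fell (2 without saline library 5). Pump regulators had 2 to 4 falls (2 without saline library 2), transport genes 1 to 3 (3 without saline library 5) and nuclear envelope genes 0 to 3 (0 without saline library 1, 1 without saline library 2). Of the marker lists, mature fibre falls ranged from 8 to 15 and lymphocyte falls stayed at 12. Adipocyte rises ranged from 2 to 5, with 2 without saline library 3 or 5. Without the 2 farthest libraries 0 relations passed, and Fxyd1 with the mature fibre mean had r of 0.87; fewer libraries entered.

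Mouse numbers 1, 2, 3 and 5 occur in both groups, and the deviations of same-numbered libraries had correlations of -0.01, -0.07, -0.03 and 0.12. The same-numbered dexamethasone library was the best match for number 5 and not for numbers 1, 2 and 3. Correlations this weak gave no sign of pairing in most numbers but cannot exclude it. With the replicate block on those 8 libraries, 3054 genes were higher and 2905 lower, and without the number in the fit 3154 and 2970. Transport genes had 3 falls with the block and 2 on the same libraries without it. The log2 fold change of Atp1b4 was -2.93 with the block. Depth limits Nkain2, Atp1a4, Fxyd3 and Fxyd7, which had few reads.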
